A study of Mus musculus with 19 samples.

Results

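The 45 genes described here encode the proteins that license origins, open the double helix, copy DNA and supply its nucleotides. They were chosen by name, as the listed origin, helicase, polymerase and nucleotide supply genes, and were matched to the count table by mouse GRCm38 symbol. The choice used no rule on their values, but earlier results of these data were known. All 45 were found among the 41388 genes of the table. All 45 also reached 10 counts in 1 or more embryos, the filter that 17137 genes passed.

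DNA replication begins at origins bound by the origin recognition complex (ORC), which works with CDC6 and CDT1 to load the ring-shaped MCM helicase in G1. Geminin, the product of *Gmnn*, binds CDT1 and blocks further loading, so that an origin is not licensed again in the same cycle. CDC45 and the GINS complex join MCM to form the active helicase, and DNA polymerases alpha, epsilon and delta then copy the strands. Many of these genes are known targets of E2F transcription factors and are transcribed as cells enter S phase, and the cells of the blastocyst divide rapidly.

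RNA from 19 single whole blastocysts at E3.25 was sequenced, 8 with the genotype Upf2 -/- (*Upf2*-null) and 11 with the genotype Upf2 +/+ (controls). UPF2 is a core factor of nonsense-mediated RNA decay (NMD), which removes mRNAs with a stop codon in an unusual place. The comparison asked which mRNAs differ between blastocysts without and with UPF2. All embryos came from crosses of *Upf2* heterozygotes on the C57BL/6 background, made with floxed *Upf2* and a Cre driven by the *E2a* promoter that is active in the preimplantation embryo. The null allele lacks exons 2 and 3 and leaves a truncated protein without NMD activity. Zygotes of both genotypes were cultured in M16 medium and collected as early blastocysts 90 to 94 h after hCG injection.

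Total counts per embryo ran from 4068350 to 5993745 in *Upf2*-null blastocysts and from 4056072 to 5854659 in controls. *Upf2* itself (ENSMUSG00000043241, chromosome 2, 5951469 to 6056703 on GRCm38) averaged 90.9 CPM in *Upf2*-null embryos (SD 21.3, n = 8), and the controls averaged 57.8 CPM (SD 16.5, n = 11). Its counts include the exons outside the deletion and so do not test the genotype. CPM stands for counts scaled to a common library size after TMM normalization. All 10 trophectoderm, all 10 epiblast and all 10 primitive endoderm markers had counts. The summed cumulus and granulosa cell markers reached at most 4.39 CPM in any embryo, with *Cyp19a1*, *Fshr* and *Lhcgr* at 0, and the summed oocyte markers ran from 4.07 to 90.9 CPM. The summed epiblast markers ran from 1056 to 1269 CPM in *Upf2*-null embryos and from 1125 to 1758 CPM in controls. From RNA of whole embryos alone, fewer cells of a type and less RNA per cell cannot be told apart. By staining, the authors counted fewer NANOG-positive cells in *Upf2*-null blastocysts. No litter or library batch is given in the sources used here.

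None of the 45 replication genes passed the test between *Upf2*-null and control blastocysts. Their fold changes were small: *Gins2* had the highest log2 fold change, at 0.42, and *Orc1* the lowest, at −0.28. With edgeR's quasi-likelihood test and Benjamini-Hochberg adjustment over all 17137 genes, called under 0.1, 0 of 45 were called, where 0.193% of all genes were (30 of the 17137 higher and 3 lower in *Upf2*-null embryos). DESeq2 also called 0 of 45, against 1.03% of all genes. At an unadjusted edgeR p under 0.05, 2 members were higher (*Rpa2* and *Gins3*) and 0 were lower, where 5.15% of all genes were higher and 7.38% lower. DESeq2 had 4 members at an unadjusted p under 0.05, 2 higher and 2 lower (*Cdc45* and *Pold3*), where 8.19% of all genes were. Limma voom had 3, 2 higher and 1 lower (*Pold2*), where 10.6% of all genes were.

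Of the 45 log2 fold changes, 20 lay above 0 and 25 below, and 52.3% of all tested genes lay below 0. The median was −0.037, beside −0.020 over all tested genes. No member had *Upf2*-null values that lay wholly above or wholly below those of controls, and 0.0934% of all tested genes did. The 95% interval of the fold change lay within 1.5-fold in either direction for 29 of 45 members and for 22.3% of all tested genes, and within 2-fold for 43 of 45 members and 39.9% of all tested genes. Many tested genes had few counts. Over the 8469 tested genes between the lowest and the highest member in mean CPM, the shares were 44.6% and 76.4%. *Pold1* and *Fen1* were the exceptions at 2-fold, with intervals of −1.12 to 0.61 and −1.17 to 0.90 on the log2 scale.

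**Figure D1:**
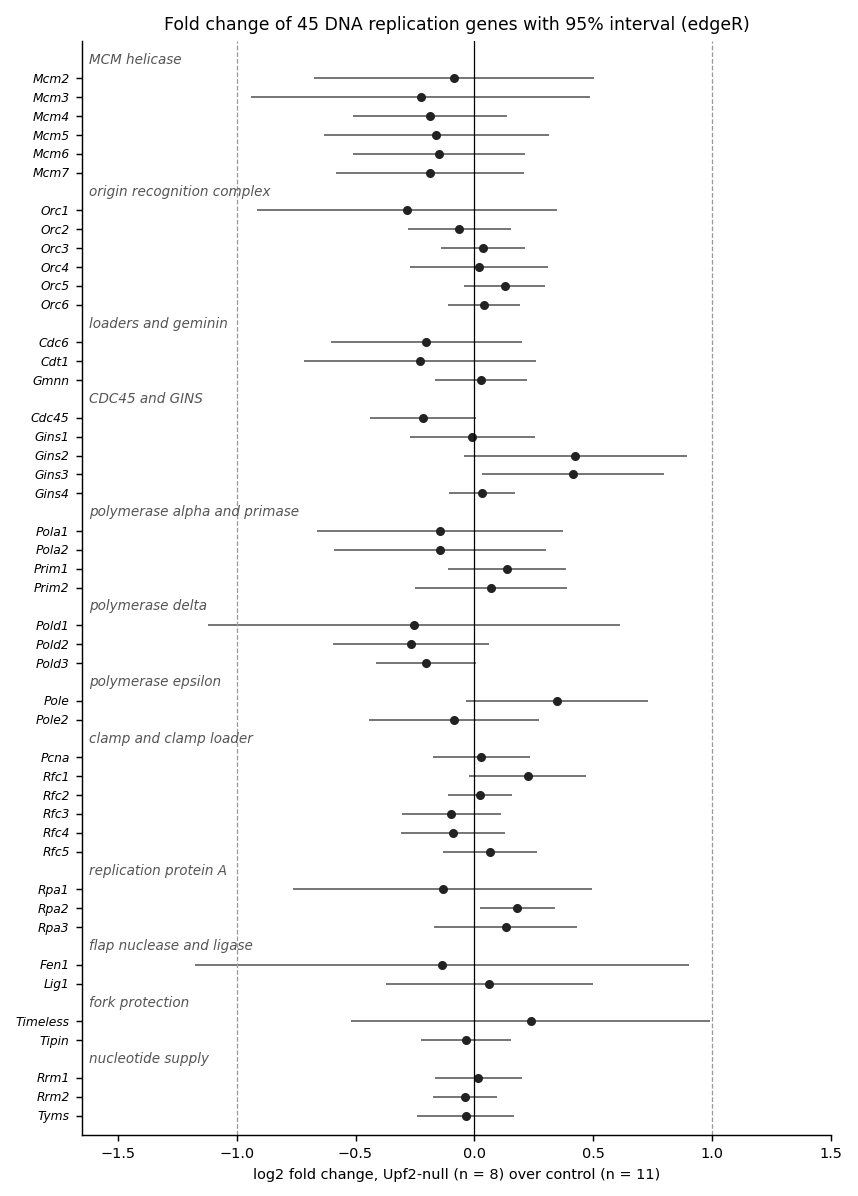
Points are the log2 fold change of each of the 45 genes in 8 Upf2-null over 11 control blastocysts, by role, and lines are 95% intervals from edgeR, with dashed lines at a 2-fold difference. Only the intervals of Rpa2 and Gins3 leave out 0, and those of Pold1 and Fen1 reach beyond −1.

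Limma voom with quality weights, which gives less weight to embryos that vary more, called 1 of 45 members, against 0.665% of all genes. That member was *Rpa2* (ENSMUSG00000028884, chromosome 4, 132768332 to 132778752), which encodes the middle subunit of replication protein A, the complex that coats single-stranded DNA. *Rpa2* lay between 302 and 329 CPM (median 319) in *Upf2*-null embryos and between 235 and 344 CPM (median 265) in controls. All 8 *Upf2*-null embryos lay above the control median and within the control range. The *Upf2*-null values spanned a narrow band inside that range, with a mean of 317 ± 10.2 CPM (SD, n = 8) against 279.5 ± 37.6 CPM (SD, n = 11). The log2 fold change was 0.18 (95% interval 0.029 to 0.33) with adjusted p = 0.288 from edgeR, 0.371 from DESeq2 and 0.0893 from voom, where the fold change was 0.25. With each embryo left out in turn, the edgeR adjusted p of *Rpa2* ran from 0.253 to 0.380.

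Letters of the kind that E2F factors are known to bind were looked for in the promoters. Promoter windows from 250 bases before to 50 bases after the transcription start, from RefSeq on GRCm38.p6, were at hand for 36 of 45 members. They were searched on both strands for the letters TTTCCCGC, TTTGGCGC, TTTCGCGC and TTTGCCGC. A match stood in a window of 15 of 36 members (41.7%), of 20 of 96 other genes of the pathway, described last (20.8%), of 520 of 11964 tested genes (4.35%) and of 704 of 27025 genes with a window (2.605%). A match is a description of letters and not a site. The 6 windows shown here come from the MCM helicase, from the ORC, from polymerase alpha and from *Gins3*, and capitals mark the matched letters, written 5′ to 3′ on the strand of the gene:
Mcm5, chr8:75109347-75109376, plus strand: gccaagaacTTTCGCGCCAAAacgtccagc
Mcm6, chr1:128359795-128359824, minus strand: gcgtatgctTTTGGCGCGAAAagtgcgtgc
Mcm6, chr1:128359732-128359761, minus strand: ttggacgggTTTGGCGCgaagtagctcagc
Orc3, chr4:34614963-34614992, minus strand: atgcctcccTTTCCCGCacgccccgcctcc
Pola1, chrX:93632273-93632302, minus strand: catcacaggGCGCCAAAtgcactcccgcgg
Gins3, chr8:95633509-95633538, plus strand: gagtgcggcGCGGGAAAgcgagtttgaagc

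In the *Mcm5* and the first *Mcm6* window, 2 of the searched sequences overlap on opposite strands. The *Mcm5* match ends 142 bases before the start, those of *Mcm6* end 99 and 40 bases before it, that of *Orc3* 34 bases, that of *Pola1* 131 bases and that of *Gins3* 34 bases. GENCODE M21 places the start of *Gins3* further upstream, at 95633453, so its window lies inside that gene model. *Cdt1*, *Lig1*, *Mcm3*, *Pold1*, *Pold3* and *Pole2* had matches only after the start, *Mcm7* and *Rfc3* on both sides of it, and *Cdc6* and *Orc1* before it. The matches before the RefSeq start in *Cdc6*, *Mcm7*, *Orc1* and *Rfc3* also lie inside the GENCODE M21 models of these genes.

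The 6 genes of the MCM helicase, the ring that unwinds DNA at the fork, all had counts in every embryo. *Mcm2* lay between 104 and 413 CPM (median 260.3) in *Upf2*-null embryos and between 90.2 and 452 CPM (median 272) in controls, with a log2 fold change of −0.086 (95% interval −0.67 to 0.50, edgeR adjusted p = 0.969). Both genotypes held low and high embryos. The lowest *Upf2*-null embryo, number 7, had 104 CPM and the lowest control, number 6, had 90.2 CPM. The log2 fold changes of *Mcm2*, *Mcm3*, *Mcm4*, *Mcm5*, *Mcm6* and *Mcm7* ran from −0.23 (*Mcm3*) to −0.086 (*Mcm2*), all below 0 and none called, with edgeR adjusted p from 0.751 to 0.969. That shared direction held under RLE factors, library totals and DESeq2, and in 5 of 6 genes when *Upf2*-null embryo 4 or 7 was left out. It held in 1 of 6 genes without 5 libraries in which GC-rich genes were low relative to GC-poor genes, described with the pattern between embryos.

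The ORC marks origins, and its 6 genes fell on both sides of 0. *Orc1* encodes the largest subunit, whose level is known to change over the cell cycle. It lay between 25.4 and 73.7 CPM (median 44.2) in *Upf2*-null embryos and between 10.6 and 94.95 CPM (median 61.3) in controls, with a log2 fold change of −0.28 (95% interval −0.91 to 0.34, edgeR adjusted p = 0.836). In 7 of 8 *Upf2*-null embryos it lay below the control median, and the lowest value of all was that of control embryo 5. *Orc2*, *Orc3*, *Orc4*, *Orc5* and *Orc6* had log2 fold changes from −0.063 to 0.13. *Orc5* was the steadiest of the 45 genes between control embryos, with a coefficient of variation of 6.90%. In GENCODE M21, 29.8% of the exonic bases of *Orc2* are shared with *Nif3l1*.

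CDC6 and CDT1 load MCM onto ORC. *Cdc6* lay between 154 and 319 CPM (median 235) in *Upf2*-null embryos and between 148 and 404 CPM (median 243) in controls, with a log2 fold change of −0.20 (95% interval −0.60 to 0.20, edgeR adjusted p = 0.805). *Cdt1* lay between 69.1 and 273 CPM (median 186) in *Upf2*-null embryos and between 111 and 342 CPM (median 217) in controls, with a log2 fold change of −0.23 (95% interval −0.71 to 0.26, edgeR adjusted p = 0.826). For both genes 4 of 8 *Upf2*-null embryos lay above the control median. *Gmnn*, which encodes the inhibitor of CDT1, varied less: it lay between 169 and 251 CPM (median 208) in *Upf2*-null embryos and between 158 and 252 CPM (median 213) in controls, with a log2 fold change of 0.029 (95% interval −0.16 to 0.22, edgeR adjusted p = 0.967).

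CDC45 and GINS turn the loaded MCM ring into the working helicase. *Cdc45* lay between 121 and 194 CPM (median 155) in *Upf2*-null embryos and between 146 and 244 CPM (median 167) in controls. In 7 of 8 *Upf2*-null embryos it lay below the control median, and the groups overlapped, with a log2 fold change of −0.22 (95% interval −0.44 to 0.0024, edgeR adjusted p = 0.408). *Gins3* (ENSMUSG00000031669, chromosome 8, 95633453 to 95645060), a GINS subunit, lay on the other side of 0: it lay between 79.5 and 182 CPM (median 127) in *Upf2*-null embryos and between 60.2 and 170.2 CPM (median 90.9) in controls. The control range covered all but the highest *Upf2*-null embryo, and 6 of 8 *Upf2*-null embryos lay above the control median. Its unadjusted p was 0.0335, with a log2 fold change of 0.41 (95% interval 0.036 to 0.79, edgeR adjusted p = 0.331). *Gins1*, *Gins2* and *Gins4* had log2 fold changes of −0.0085, 0.42 and 0.032. Of the exonic bases of *Gins2*, 67.3% are shared with *Gse1*, and how reads in shared exons were counted is not given in the sources used here.

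Polymerase alpha with its primase starts each new strand. Its catalytic gene *Pola1*, on the X chromosome, lay between 57.7 and 129 CPM (median 84.9) in *Upf2*-null embryos and between 36.6 and 217 CPM (median 81.4) in controls, with a log2 fold change of −0.14 (95% interval −0.66 to 0.37, edgeR adjusted p = 0.920). Summed Y-linked genes ran from 3.14 to 460 CPM in *Upf2*-null embryos and from 3.76 to 472 CPM in controls. The part of sex in the spread of *Pola1* was not tested. *Pola2*, *Prim1* and *Prim2* had log2 fold changes of −0.14, 0.14 and 0.072. Polymerase delta copies the lagging strand, and its 3 genes among the 45 all lay below 0 with none called. The catalytic gene *Pold1* lay between 13.5 and 137 CPM (median 47.4) in *Upf2*-null embryos and between 26.6 and 137 CPM (median 86.4) in controls, with a log2 fold change of −0.25 (95% interval −1.12 to 0.61, edgeR adjusted p = 0.911). *Pold2* and *Pold3* had log2 fold changes of −0.27 and −0.21, with edgeR adjusted p of 0.545 and 0.403. For *Pold3*, 7 of 8 *Upf2*-null embryos lay below the control median. The 3 genes kept this direction under the other scalings, and 2 of 3 did without the 5 libraries with GC-rich genes low relative to GC-poor genes. *Pold4*, which encodes the smallest subunit and is not among the 45, lay on the other side of 0: it lay between 16.4 and 68.9 CPM (median 44.2) in *Upf2*-null embryos and between 4.86 and 44.9 CPM (median 29.3) in controls, with a log2 fold change of 0.66 (95% interval −0.068 to 1.38, edgeR adjusted p = 0.480), and 7 of 8 *Upf2*-null embryos lay above the control median.

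Polymerase epsilon copies the leading strand. Its catalytic gene *Pole* lay between 31.6 and 74.6 CPM (median 48.1) in *Upf2*-null embryos and between 31.9 and 57.9 CPM (median 38.1) in controls. In 6 of 8 *Upf2*-null embryos it lay above the control median, with a log2 fold change of 0.35 (95% interval −0.030 to 0.72, edgeR adjusted p = 0.469). *Pole2*, which encodes its second subunit, had a log2 fold change of −0.086. PCNA is the sliding clamp that holds the polymerases on DNA and the RFC complex loads it. *Pcna* lay between 156 and 208 CPM (median 182) in *Upf2*-null embryos and between 148 and 229 CPM (median 167) in controls, with a log2 fold change of 0.030 (95% interval −0.17 to 0.23, edgeR adjusted p = 0.968). *Rfc1*, *Rfc2*, *Rfc3*, *Rfc4* and *Rfc5* had log2 fold changes from −0.10 (*Rfc3*) to 0.22 (*Rfc1*). All 8 *Upf2*-null embryos had more *Rfc1*, the large subunit of the loader, than the control median, with an edgeR adjusted p of 0.463.

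Of the other replication protein A genes, *Rpa1*, which encodes the large DNA-binding subunit, lay between 75.3 and 342 CPM (median 198) in *Upf2*-null embryos and between 67.3 and 445 CPM (median 246) in controls, with a log2 fold change of −0.13 (95% interval −0.76 to 0.49, edgeR adjusted p = 0.947). *Rpa3*, the small subunit, had a log2 fold change of 0.13. FEN1 trims the flaps of Okazaki fragments and LIG1 seals them. *Fen1* was the gene with the fewest counts, 5 to 136 per embryo, and lay between 0.996 and 24.1 CPM (median 16.1) in *Upf2*-null embryos and between 2.83 and 22.9 CPM (median 16.3) in controls, with a log2 fold change of −0.14 (95% interval −1.17 to 0.90, edgeR adjusted p = 0.973). *Gm10143* and *Tmem258* cover 84.2% of its exonic bases, so its level is uncertain. *Lig1* had a log2 fold change of 0.063.

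TIMELESS and TIPIN travel with the fork and protect it when it stalls. *Timeless* lay between 26.3 and 104 CPM (median 47.5) in *Upf2*-null embryos and between 6.41 and 84.97 CPM (median 47.9) in controls, with a log2 fold change of 0.24 (95% interval −0.52 to 0.99, edgeR adjusted p = 0.903). Its lowest value was again that of control embryo 5. *Tipin* had a log2 fold change of −0.035 and a coefficient of variation of 15.3% in controls, where *Timeless* had 52.4%. Ribonucleotide reductase, made of RRM1 and RRM2, forms deoxyribonucleotides, and thymidylate synthase, the product of *Tyms*, makes the thymidine precursor. *Rrm1* lay between 393 and 570.1 CPM (median 516) in *Upf2*-null embryos and between 402 and 618 CPM (median 467) in controls, with a log2 fold change of 0.016 (95% interval −0.16 to 0.19, edgeR adjusted p = 0.981). *Rrm2*, the regulated subunit, lay between 520.0 and 634 CPM (median 555) in *Upf2*-null embryos and between 506 and 696 CPM (median 571) in controls, with a log2 fold change of −0.039 (95% interval −0.17 to 0.093, edgeR adjusted p = 0.911). *Tyms* lay between 219 and 314 CPM (median 245) in *Upf2*-null embryos and between 207 and 351 CPM (median 263) in controls, with a log2 fold change of −0.037 (95% interval −0.24 to 0.16, edgeR adjusted p = 0.955). The intervals of the 3 nucleotide genes each covered 0 and lay within 1.5-fold.

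**Figure D2:**
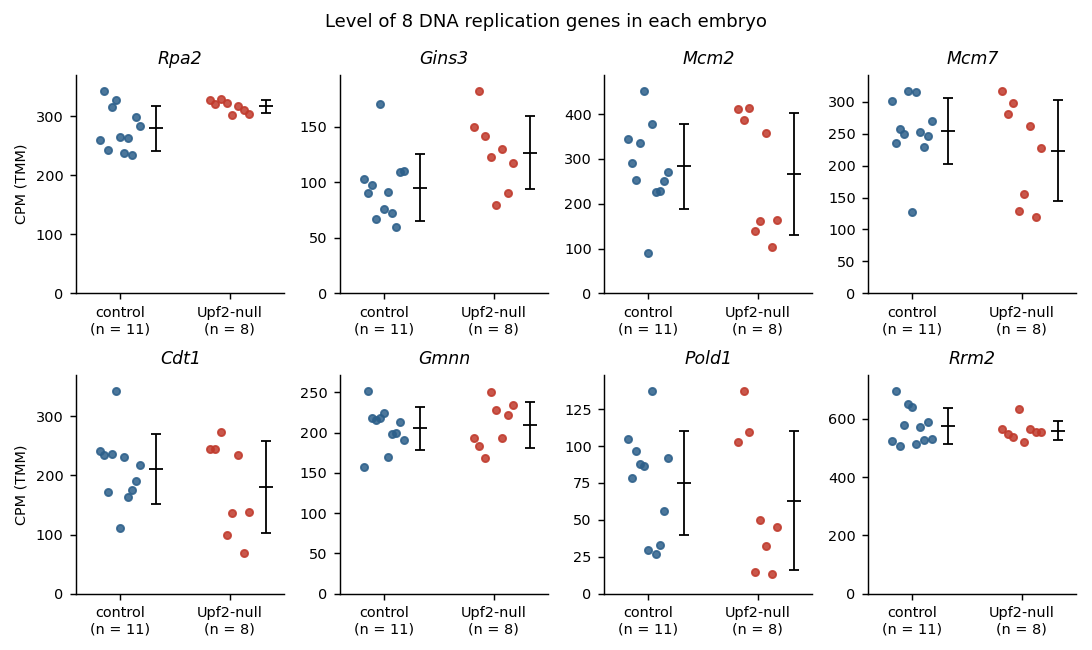
Each point is the TMM-normalized CPM of 1 embryo for 8 of the genes, with controls in blue and Upf2-null in red, and the bar at the side is the mean ± SD. Rpa2 forms a narrow band of 302 to 329 CPM in Upf2-null embryos inside the control range, and Mcm2, Mcm7, Cdt1 and Pold1 hold low embryos in both genotypes.

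Levels between genes were compared as CPM per kb of exon. In controls *Rrm2* stood highest, at 208 CPM per kb, followed by *Gins4* at 177, *Gmnn* at 140.0, *Rfc4* at 138 and *Tipin* at 132. The lowest were *Timeless* at 7.83, *Fen1* at 6.30 and *Pole* at 3.58 CPM per kb. No neighbours in the order of 45 had control ranges that were apart. The MCM genes ran from 40.8 (*Mcm2*) to 88.6 (*Mcm4*) and the ORC genes from 16.6 (*Orc1*) to 86.5 (*Orc6*). *Gins2* stood at 15.0 CPM per kb, below the other 3 genes of its complex (*Gins3* 35.1, *Gins1* 83.0 and *Gins4* 177). Other genes share 67.3% of the exonic bases of *Gins2* and 84.2% of those of *Fen1*, so the places of these genes are uncertain. *Pold1* at 15.5 and *Pole* were each below the other subunits of their polymerase. The order depended on the length used. Per kb of the longest transcript *Rrm2* (262) stayed highest and *Pole* (5.57) lowest. By that length *Gmnn* (182) stood above *Gins4* (177), and *Rpa2* (154), *Orc6* (146) and *Pold3* (136) above *Tipin* (134). *Mcm3* (57.1) was then the lowest MCM gene, with *Mcm2* at 81.3. The authors removed PCR duplicates before counting, and no gene had more than 4884 counts in any embryo, while *Rrm2* reached 3094. The part of duplicate removal in the order was not tested. Together the 45 genes took 0.825% to 0.991% of the counts of a *Upf2*-null embryo and 0.816% to 1.05% of a control.

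**Figure D3:**
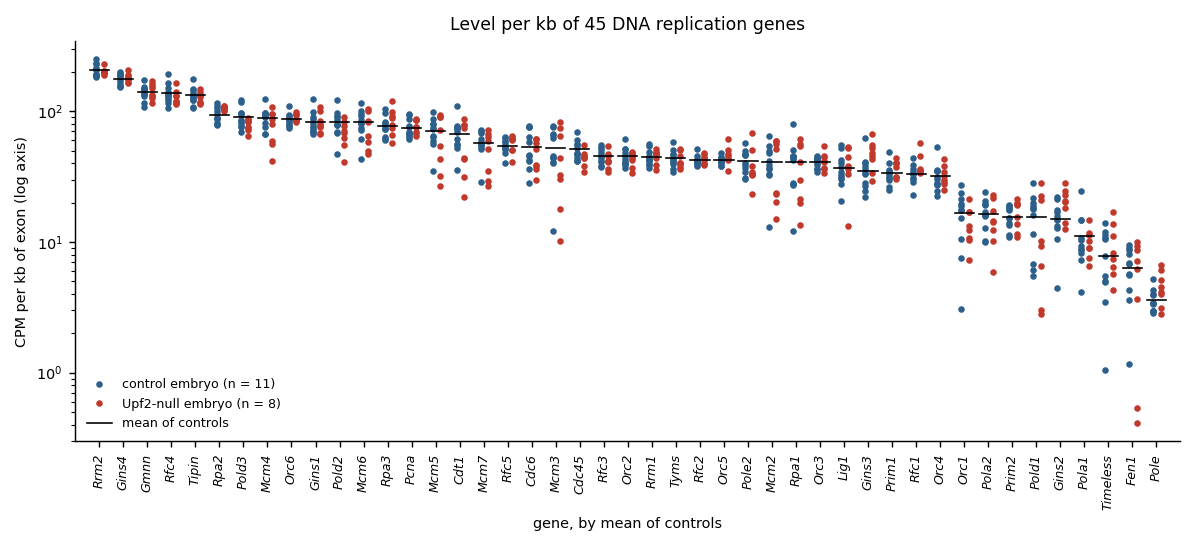
Each point is the level of 1 embryo in CPM per kb of exon on a log axis, controls in blue and Upf2-null in red, with a bar at the mean of controls. The genes run from Rrm2 at 208 to Pole at 3.58 CPM per kb, and the 2 genotypes cover each other in all 45.

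The spread between control embryos differed widely among the members. Their median coefficient of variation was 20.0%, against 29.1% over those 8469 tested genes, whose levels were lower, with a median mean CPM of 81.7 where that of the members was 205.7. It ran from 6.90% for *Orc5* to 52.4% for *Timeless*. Below 10% were *Orc5*, *Rfc2* (8.66%), *Gins4* (9.07%) and *Orc3* (9.12%). Above 40% were *Fen1* (40.6%), *Rpa1* (42.7%), *Orc1* (42.9%), *Pold1* (46.7%), *Pola1* (49.3%) and *Timeless*.

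Several members differed widely between embryos of the same genotype. *Upf2*-null embryos 4 and 7 and control embryo 6 were low together in *Mcm2*, *Mcm3*, *Mcm5*, *Mcm6*, *Mcm7*, *Cdt1*, *Pold1*, *Fen1* and *Rpa1*. *Mcm3* was at 67.3, 37.8 and 45.1 CPM in these 3, where the control median was 170.2. *Rpa1* was at 111, 75.3 and 67.3 CPM, where the control median was 246. *Mcm6* was at 221, 229 and 202 CPM, where the control median was 381. All the genes named here but *Mcm6* (47.3% GC) and *Rpa1* (48.9% GC) had at least 50% GC in their longest transcript. *Pold1* was also low in control embryos 8 and 9 and *Upf2*-null embryo 6, at 26.6, 32.7 and 32.0 CPM. The mean deviation of the 6 MCM genes from the mean of controls ran from −1.16 to 0.47 on the log2 scale over *Upf2*-null embryos and from −1.12 to 0.43 over controls.

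GC content moved with this pattern. For each embryo the deviation from the mean of controls was taken over 9181 genes with a mean of at least 10 CPM, members left out, and the median of the 2297 GC-poorest genes (up to 44.5% GC) was subtracted from that of the 2296 GC-richest (from 53.9% GC). This GC difference ran from −0.72 to 0.29 (median 0.095) over *Upf2*-null embryos and from −0.44 to 0.40 (median 0.085) over controls. It was −0.72 and −0.46 in *Upf2*-null embryos 4 and 7 and −0.33 in control embryo 6. The 16 members with at least 50% GC in their longest transcript averaged −0.73, −0.83 and −0.76 in these 3 embryos, while the 13 members under 45% GC averaged 0.37, 0.084 and 0.11. Not all of the 16 were low. In *Upf2*-null embryo 4, *Gins2*, *Rpa2* and *Pole* were at 100, 322 and 56.6 CPM, where the control medians were 61.8, 265 and 38.1. At the other end, control embryo 7 had a GC difference of 0.40, with averages of 0.29 and −0.10. Control embryo 2 departed from the pattern: its GC difference was −0.44 and its GC-rich members averaged 0.035. *Upf2*-null embryo 8 departed from it in the MCM genes, which averaged −0.44 at a GC difference of 0.16.

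Across the 45 genes of an embryo, which are not independent replicates, the correlation between GC content and deviation was −0.65 in *Upf2*-null embryo 4 and −0.62 in control embryo 6, and 0.64 in control embryo 7. The GC difference was under −0.3 in 3 of 8 *Upf2*-null embryos (4, 5 and 7) and 2 of 11 controls (2 and 6). Without these 5 libraries 0 of 45 members were called, 25 lay above 0, and 5 of 6 MCM genes lay above 0, with log2 fold changes from −0.10 to 0.18. With the GC difference as a covariate 0 of 45 were called, and all 6 MCM genes lay below 0, from −0.28 to −0.064. Both of these fits were chosen after seeing the data. Total counts were 4431608 and 4794356 in *Upf2*-null embryos 4 and 7 and 4056072 in control embryo 6. Control embryo 2 had 4154229 counts, with averages of 0.21 over the MCM genes and 0.035 over the GC-rich members. *Upf2*-null embryo 8 had the lowest total of its group, 4068350, with averages of −0.44 over the MCM genes and 0.033 over the GC-rich members. The part of GC content and depth in the pattern was not tested further.

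**Figure D4:**
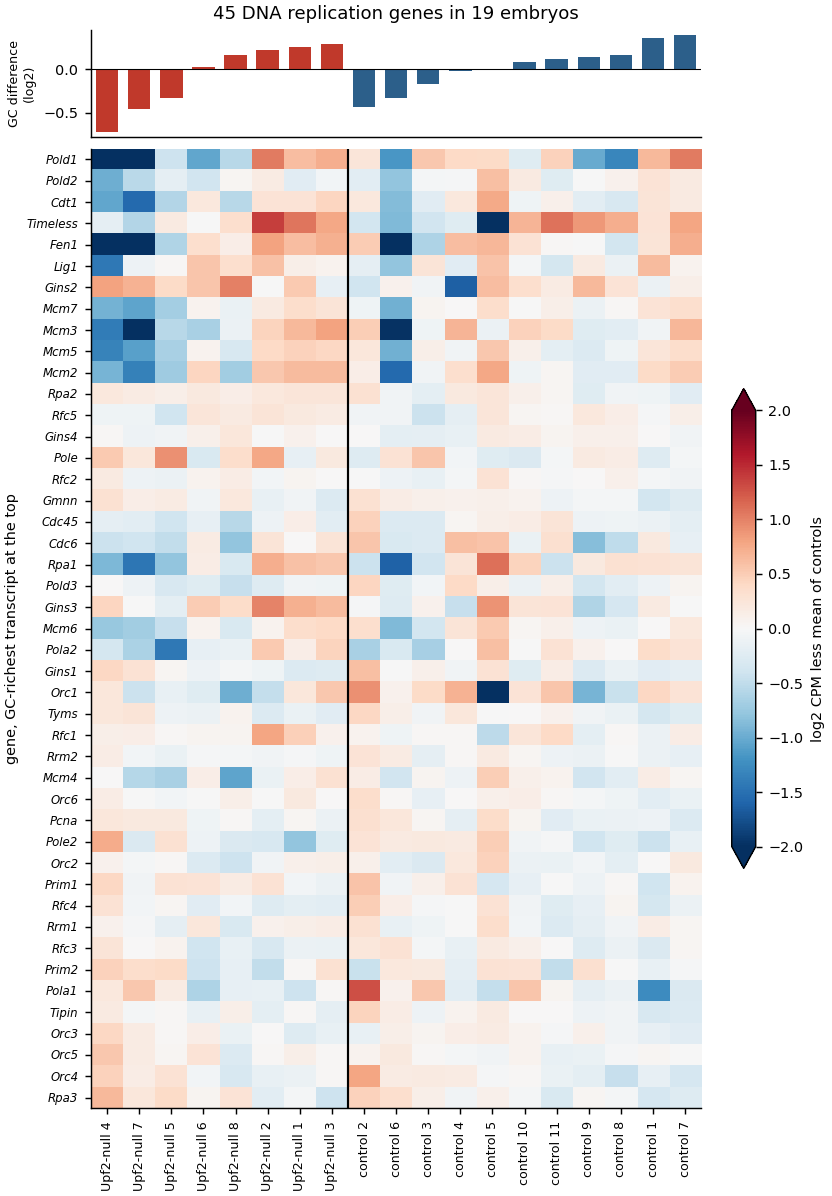
Rows are the 45 genes with the GC-richest transcript at the top, columns are the 19 embryos in order of GC difference within each genotype (bars above, log2), and colours are log2 CPM less the mean of controls, cut at −2 and 2. Upf2-null embryos 4 and 7 and control embryo 6 are blue in many GC-rich rows, and no row separates the genotypes.

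**Figure D5:**
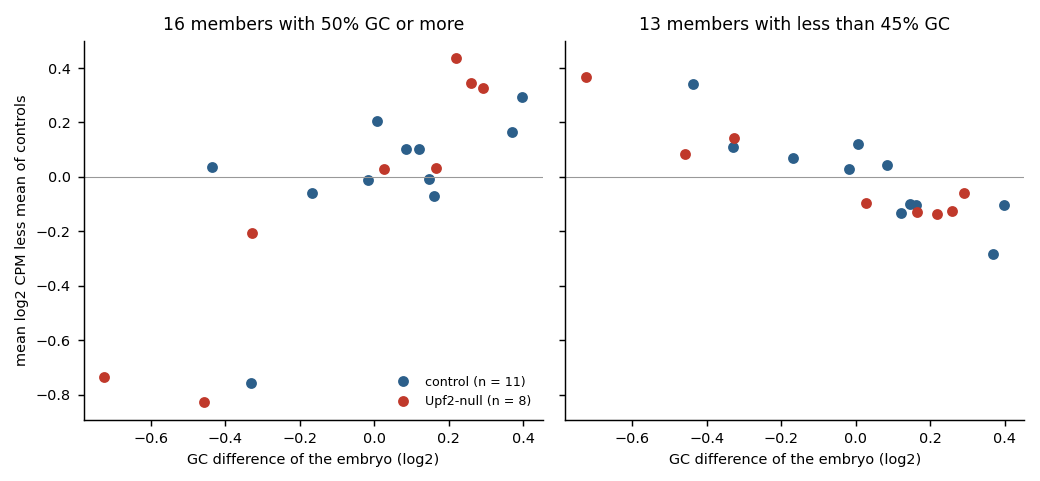
Each point is 1 embryo, with its GC difference over other genes (log2) against the mean log2 CPM less the mean of controls of 16 GC-rich members (left) and 13 GC-poor members (right). GC-rich members average −0.73, −0.83 and −0.76 in 3 embryos with a low GC difference, and GC-poor members lie above 0 in all 5 embryos with a difference under −0.3.

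Ratios within an embryo do not depend on its scaling, and 4 were compared with two-sided exact permutation tests over 75582 arrangements. The log2 ratio of *Cdt1* to its inhibitor *Gmnn* was −0.35 ± 0.89 (SD, n = 8) in *Upf2*-null embryos against −0.0055 ± 0.48 (SD, n = 11) in controls, with an exact permutation p of 0.289. That of *Rrm2* to *Rrm1* was 0.18 ± 0.17 (SD, n = 8) and 0.23 ± 0.17 (SD, n = 11), exact permutation p = 0.521. That of *Orc1* to *Orc2* was −1.87 ± 0.34 (SD, n = 8) and −1.76 ± 1.01 (SD, n = 11), exact permutation p = 0.836. That of *Pole* to *Pold1* was 0.066 ± 1.32 (SD, n = 8) and −0.75 ± 0.94 (SD, n = 11), exact permutation p = 0.130. Adjusted over the 4 ratios, the permutation p ran from 0.520 to 0.836, so no difference was detected in these ratios. Without the 5 libraries with a low GC difference, the difference in the *Pole* to *Pold1* ratio was 0.12 in place of 0.82, and those of *Cdt1* to *Gmnn* and *Orc1* to *Orc2* changed sign, to 0.073 and 0.041.

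Genes that work beside the 45 were drawn from 7 groups: origin firing, other fork factors, chromatin assembly at the fork, other nucleotide enzymes, E2F factors and G1-S control, the replication checkpoint, and the ubiquitin ligases of licensing factors. None of the 115 was called by edgeR, by DESeq2 or by voom. At an unadjusted edgeR p under 0.05, 5 were higher (4.35%) and 8 lower (6.96%), near the shares of all genes, 5.15% and 7.38%. Their median log2 fold change was −0.057. *Mcm10*, an origin firing factor whose gene lies near *Upf2* on chromosome 2 (4989714 to 5012791), lay between 162 and 391.96 CPM (median 294) in *Upf2*-null embryos and between 149.9 and 361 CPM (median 238) in controls, with a log2 fold change of 0.18 (95% interval −0.25 to 0.60, edgeR adjusted p = 0.858).

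Those on the higher side included *Tk2*, *Pole3*, *Hus1* and *Rad9a*. *Tk2*, the mitochondrial thymidine kinase, lay between 35.7 and 88.6 CPM (median 48.1) in *Upf2*-null embryos and between 0.663 and 42.4 CPM (median 20.8) in controls. The groups overlapped, and all 8 *Upf2*-null embryos lay above the control median, with a log2 fold change of 1.23 (95% interval 0.41 to 2.05, edgeR adjusted p = 0.255). With 1 surrogate variable as a covariate *Tk2* was called, at a log2 fold change of 1.45 and an edgeR adjusted p of 0.0288. *Pole3*, a small subunit of polymerase epsilon, had a log2 fold change of 0.23. Those of *Hus1* and *Rad9a*, which encode parts of the checkpoint clamp, were 0.46 and 0.24.

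The lowest unadjusted p-values on the lower side were those of *Impdh2*, *Ccnd3*, *Ccna2*, *Cdk4* and *Chaf1b*. *Impdh2*, an enzyme of guanine nucleotide synthesis, lay between 169 and 241 CPM (median 192) in *Upf2*-null embryos and between 197 and 368 CPM (median 243) in controls, with a log2 fold change of −0.37 (95% interval −0.61 to −0.13, edgeR adjusted p = 0.255). The cyclin genes *Ccnd3* and *Ccna2* had log2 fold changes of −0.55 and −0.23, and *Cdk4*, the kinase partner of D-type cyclins, had −0.14. *Chaf1b*, a subunit of the chromatin assembly factor that PCNA brings to new DNA, had −0.23. None of these passed after adjustment over all genes, with edgeR adjusted p from 0.255 to 0.284 on the lower side and from 0.255 to 0.358 on the higher side.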

How the data were processed

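Single blastocysts were sequenced as 1 library each. From cDNA made with a SMARTer low-input kit and tagmented with Nextera XT, the authors aligned trimmed reads to GRCm38 (STAR 2.5.2a), took out PCR duplicates and deposited raw featureCounts counts per Ensembl gene. The deposited scaled table, taken here as signal, holds each count times 1 factor per embryo. All its values came out within 0.001 of whole reads, and edgeR on those reads called 30 genes higher and 3 lower, as did the raw counts. The deposited models of transcripts, merged by StringTie from HISAT2 alignments to mm10, hold no values per embryo. Spike-in RNA was not analysed here. Strand is not stated for the counts, so reads of genes that overlap in antisense cannot be separated.

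Groups came from the genotype labels, and all 19 embryos entered each fit unless stated. The test was edgeR's quasi-likelihood test (edgeR 4.0.16, robust, TMM factors) on genes that reached 10 counts in any embryo, and Benjamini-Hochberg adjusted p-values under 0.1 were called, the level the study used. The study used DESeq2, run here as an alternative (DESeq2 1.42.0), beside limma voom (limma 3.58.1) and sva 3.50.0. Intervals are at 95%. Log2 CPM used a prior count of 2. Ratios were compared with exact permutation tests. Between 2 embryos of a genotype the chi-square per gene was at least 10.0 (median 30.9), so none was a duplicate library. Annotation was GENCODE M21. Levels per kb used the union of exons. Scripts were tested on simulated data. R 4.3.3, Python 3.11.15, numpy 2.4.6, pandas 2.3.3, scipy 1.17.1 and matplotlib 3.10.9 were used.

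The members and lists were chosen with earlier results of these data known. All 45 members are named, and lowest, median and highest values are given for members past a threshold of edgeR, DESeq2 or voom or with an unadjusted edgeR p under 0.05, for the first listed gene of each role, and for *Cdc6*, *Cdt1*, *Gmnn*, *Cdc45*, *Pcna*, *Rrm1*, *Rrm2* and *Tyms*. Other pathway genes are named by a call or by the 5 lowest p-values in each direction, and *Mcm10* for its place; 1 gene that the rule names is not reported here. Other values were chosen after they were seen. Beside the fits given, 34 other settings were listed at the start, and after seeing the data 8 were added, for the reads recovered from the scaled table and the GC difference.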

Additional observations from a re-analysis of the deposited data

Results flagged for a closer look

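In 54 groups of *Upf2*-null values 2 embryos stood apart from the rest of their group by Dixon's test at 95%, a test that chance passes in about 1 in 20 groups. The *Rrm2* level of *Upf2*-null embryo 4 was 633.7 CPM, where the other 7 *Upf2*-null embryos ran from 520.0 to 565.9 CPM and controls reached 696 CPM. The summed cumulus and granulosa cell markers of *Upf2*-null embryo 3 were at 2.61 CPM, where the other *Upf2*-null embryos ran from 0.193 to 0.996 CPM and controls from 0 to 4.39 CPM. The values of the 11 controls were not tested in this way.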

How the results depend on the processing

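Over 35 alternatives 0 of 45 replication genes were called except with limma voom, which called 1 (*Rpa2*), and the median log2 fold change ran from −0.064 to 0.026. Between 1 and 5 members had an unadjusted p under 0.05, where edgeR on all embryos gave 2. It gave 1 without control embryo 4, and 4 without *Upf2*-null embryo 1 or without control embryo 1, 3, 6 or 10. With each embryo left out in turn 0 members were called and the median ran from −0.054 to 0.010. Of the 115 other pathway genes 0 were called except with 1 surrogate variable, which called 1 (*Tk2*). Their median, −0.057, was 0.0096 without the 5 libraries with a GC difference under −0.3, and their count at an unadjusted p under 0.05 was 13, with 8 there and 6 under the block. Without those libraries the *Cdt1* to *Gmnn* and *Orc1* to *Orc2* differences were 0.073 and 0.041, on the other side of 0. Over all genes edgeR called 33, DESeq2 176, voom 114, edgeR at a threshold of 0.05 11, with the GC covariate 70 higher and 53 lower, and without the 5 libraries 6. The median level was 45.2 CPM per kb of exon and 69.5 per kb of the longest transcript. The longest transcript is at most as long as the union of exons, so a level per kb of it is no lower. The causes of the other shifts were not tested. Leaving out libraries also leaves fewer samples, and the part of this was not tested. The median coefficient of variation in controls ran from 17.1% to 21.1% with each control left out.

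The replicate numbers pair nothing in the labels, and same-numbered embryos did not deviate together (correlations from −0.137 to 0.0687). With the replicate block 0 members and 0 genes in all were called, and 1 member was higher and 1 lower at an unadjusted p under 0.05. *Fen1*, with 5 counts in its lowest embryo, is the member whose depth limits its value most.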

Other observations

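The merged transcript models, pooled over all embryos and without values per embryo, held 221 models that match no annotated transcript in 38 of the 45 replication genes (84.4%), where 87.5% of tested genes in the same range of mean CPM and 62.1% of all tested genes with a multi-exon annotated model had one. *Rrm2* had the most, 19, followed by *Tyms* with 18. A model that keeps an annotated intron was present for 10 of 45 members (22.2%), against 14.5% of tested genes in the same range of mean CPM. These were *Pole*, *Rpa3*, *Rrm2*, *Pole2*, *Orc5*, *Rfc1*, *Mcm7*, *Gins4*, *Orc6* and *Timeless*. The 8469 tested genes in that range had a median mean CPM of 81.7, where that of the members was 205.7. The part of level in these shares was not tested. *Rrm2* on chromosome 12 kept 4 introns, of 915, 127, 95 and 105 bases. The models do not tell which genotype they came from.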
